A study of Rattus norvegicus with 24 samples.

Results

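The mitochondrial chromosome encodes 6 protein subunits of the respiratory chain enzymes beyond complex I, and this account follows their RNA in the septum of the rat heart. They are Mt-co1 (ENSRNOG00000034234), Mt-co2 (ENSRNOG00000030371) and Mt-co3 (ENSRNOG00000030700) of complex IV, Mt-atp8 (ENSRNOG00000033299) and Mt-atp6 (ENSRNOG00000031979) of complex V, and Mt-cyb (ENSRNOG00000031766) of complex III. The rows were chosen by chromosome and gene ID, not by any measured value, and make up 6 of the 37 annotated genes of the mitochondrial chromosome and 6 of 30562 genes in all. All 6 passed the filter on low counts, as did 22 mitochondrial genes and 17347 genes overall.

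The septum was taken on day 28 after cardiac ischemia-reperfusion from 24 Sprague-Dawley rats in 4 groups of 6. All the rats had the heart injury and an infusion into the cerebral ventricles. Control rats kept their brown adipose tissue (BAT, a fat that burns fuel for heat) and were infused with vehicle. In the other 3 groups the infusion held leptin, the hormone of fat cells that acts on the brain, and BAT was intact, removed (ablation, BATx) or cut off from its sympathetic nerves (denervation, BATsx). No operated group received vehicle, so ablation and denervation can be compared with intact BAT under leptin, while their comparison with vehicle changes surgery and infusion together. The labels give no age or sex. The comparisons share groups, so a low or high group enters several of them.

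Complexes III and IV pass electrons down the respiratory chain to oxygen and pump protons out of the mitochondrial matrix, and complex V, the ATP synthase, uses the returning protons to make ATP. Each is built from many nuclear-encoded proteins and from core protein encoded by mitochondrial DNA. The mitochondrial genes are read as long polycistronic transcripts, which are cut into messengers mostly at the transfer RNAs between genes. Heart muscle is dense in mitochondria, and their messengers make up a large part of its RNA.

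All 6 genes lie on the plus strand of the mitochondrial chromosome in the mRatBN7.2 assembly. Mt-co1 (5323 to 6867, 1545 bases), Mt-co2 (7006 to 7689, 684 bases), Mt-atp8 (7758 to 7961, 204 bases), Mt-atp6 (7919 to 8599, 681 bases) and Mt-co3 (8599 to 9382, 784 bases) follow each other, and Mt-cyb (14136 to 15278, 1143 bases) lies apart. Mt-atp8 and Mt-atp6 share 43 bases, and Mt-atp6 and Mt-co3 share 1 base. The deposited counting was run with no option to assign a read to more than 1 gene, so a 100-base read that touches an overlap is not counted for either gene. This leaves 63 starting positions at which such a read touches Mt-atp8 alone, against 538 for Mt-atp6, 684 for Mt-co3 and 1444 for Mt-co1. The count of Mt-atp8 therefore rests on a small stretch of its sequence, and the split of reads between it and Mt-atp6 is uncertain.

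The libraries held 71587993 to 122910706 assigned reads, of which 23.1% to 45.9% fell on the mitochondrial chromosome. The lowest count of any of the 6 genes was 70871 reads (Mt-atp8), for which counting error alone is 0.376% of the value, which is small beside the spread given below. The gene IDs carry no symbols beyond the 6 and matched no name table here, so the labelled tissue could not be checked against its marker genes, and nuclear subunits of the same complexes are not described. Earlier results of these data had separated the 7 rats with the highest numbers in the labels (3 vehicle, 1 intact BAT with leptin, 1 ablation, 2 denervation) from the other 17. The labels do not say what the numbers stand for, and values within these sets are given beside the results they touch.

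Together the 6 genes took 24.6% ± 4.50 (SD, n = 24) of all reads, from 17.8% to 35.2% of a library. They were 75.6% ± 2.00 (SD, n = 24) of the mitochondrial reads. The complex IV subunits made up 54.2% ± 2.04 of the mitochondrial reads, complex V 11.3% ± 0.698 and Mt-cyb of complex III 10.0% ± 0.932 (SD, n = 24). Mt-co1 had the highest count of all 30562 genes in each of the 24 libraries. Mt-co3 ranked 2 or 3, Mt-atp6 and Mt-cyb ranked between 2 and 5, Mt-co2 between 3 and 7, and Mt-atp8 between 19 and 87.

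Per length, in RPKM (reads scaled to gene length and to the library's assigned reads), Mt-co1 stood at 68506 ± 13299, followed by Mt-co3 at 51094 ± 9809, Mt-atp6 at 50343 ± 9795, Mt-co2 at 44717 ± 8918, Mt-cyb at 28461 ± 5364 and Mt-atp8 at 11718 ± 5692 (SD, n = 24). The highest and lowest of the 6 were nearly the same in every rat, but the order between them varied. The commonest full order held in 10 of 24 libraries, and Mt-co2 lay above Mt-atp6 in 4 and above Mt-co3 in 1. Mt-co1 lay above Mt-co2, Mt-co3 and Mt-cyb in all 24 libraries and above Mt-atp6 in 23, the exception being denervation replicate 1, where Mt-atp6 stood at 42385 and Mt-co1 at 42293. Mt-cyb lay above Mt-atp8 and below the other 4 in all 24 libraries. Mt-atp6 lay above Mt-co3 in 11 of 24, so these neighbours did not hold an order. Mt-atp8 was lowest per length in all 24. Per starting position that touches the gene alone, in CPM (counts scaled to the library's assigned reads), its place depended on the set of rats. It stood at 63.4 ± 9.77 in the 7 higher-numbered rats, where Mt-cyb stood at 28.7 ± 3.46, and at 27.4 ± 7.14 in the 17 others, where Mt-cyb stood at 31.9 ± 6.43 (SD). Mt-atp8 thus lay above Mt-cyb in all 7 of the first and below it in 14 of the 17 others.

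Scaled to all reads, the mean of each of the 6 genes was lowest in the denervated rats. Mt-co1, which carries the oxygen-reducing center of complex IV, took 10.6% to 12.3% of all reads with vehicle (median 11.1%) and 6.53% to 9.94% after denervation (median 8.96%). With intact BAT and leptin it took 8.58% to 13.5% (median 11.0%), and after ablation 7.28% to 15.1% (median 11.5%). No denervation library reached the lowest vehicle library, while the leptin and ablation groups overlapped with all others. Mt-co2, which takes electrons from cytochrome c, also had its lowest mean after denervation, with 3.11% to 3.71% with vehicle (median 3.52%) and 2.27% to 2.79% after denervation (median 2.51%). It took 2.45% to 3.77% in the leptin group (median 3.04%) and 2.13% to 4.30% after ablation (median 3.23%). The vehicle and denervation libraries again did not overlap. Mt-co3, a structural subunit of the complex IV core, took 4.04% to 4.94% with vehicle (median 4.51%) and 3.03% to 3.68% after denervation (median 3.14%). It took 3.01% to 4.72% in the leptin group (median 4.04%) and 2.83% to 5.51% after ablation (median 4.33%). Here too denervation stood below vehicle in every library and overlapped with the other 2 groups. Because the samples are bulk tissue, fewer cells rich in mitochondria and less mitochondrial RNA per cell cannot be told apart in any of these values.

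**Figure D1:**
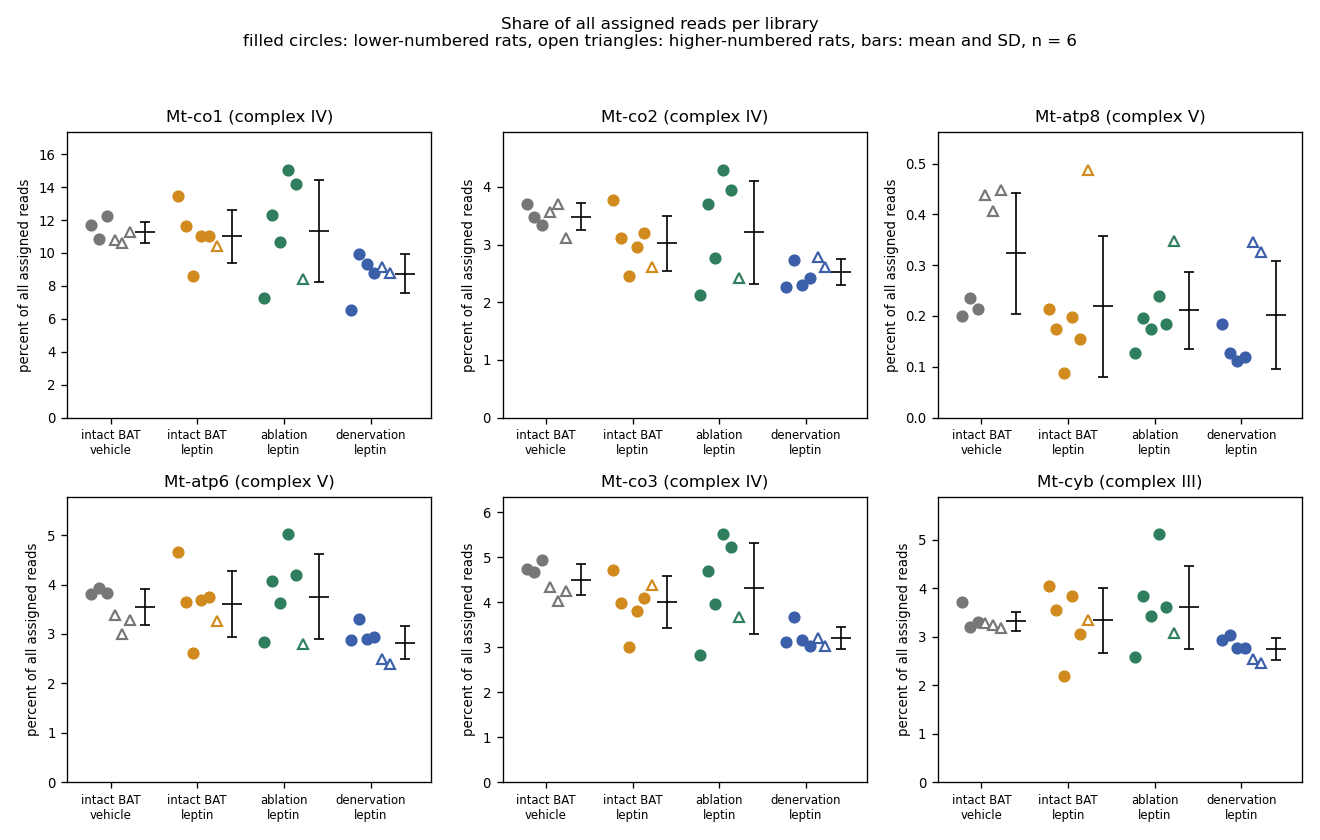
Percent of all assigned reads (vertical axes, each from 0) for the 6 genes in the 24 libraries, by group; filled circles are the 17 lower-numbered rats, open triangles the 7 higher-numbered rats, and bars the mean and SD (n = 6). For Mt-co1, Mt-co2, Mt-co3 and Mt-cyb the denervation libraries all lie below the vehicle libraries, and for Mt-atp8 the triangles stand above the circles within each group.

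Of the complex V pair, Mt-atp6, the subunit that forms the proton path with the rotor ring, took 3.01% to 3.92% of all reads with vehicle (median 3.60%) and 2.39% to 3.31% after denervation (median 2.89%). It took 2.62% to 4.65% in the leptin group (median 3.66%) and 2.79% to 5.01% after ablation (median 3.85%). The highest denervation library lay above the lowest vehicle library, so all 4 groups overlapped. Mt-atp8, a small membrane subunit of the stator, took 0.200% to 0.447% with vehicle (median 0.320%) and 0.111% to 0.346% after denervation (median 0.156%). It took 0.0874% to 0.488% in the leptin group (median 0.187%) and 0.126% to 0.347% after ablation (median 0.190%). Its groups overlapped widely and each split into a high and a low set of rats. Mt-cyb, the cytochrome b of complex III, took 3.17% to 3.71% with vehicle (median 3.26%) and 2.46% to 3.04% after denervation (median 2.77%). It took 2.18% to 4.05% in the leptin group (median 3.44%) and 2.59% to 5.11% after ablation (median 3.51%). Its vehicle and denervation libraries did not overlap. The spread differed between groups: the SD of the summed share of the 6 genes was 1.22 points with vehicle (mean 26.4%) and 1.60 after denervation (mean 20.2%), against 3.81 in the leptin group (mean 25.2%) and 6.60 after ablation (mean 26.4%).

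Of the 6 comparisons, denervation against vehicle had the largest median difference of the 6 genes, and whether they passed depended on the test. On TMM-scaled counts (edgeR quasi-likelihood test, Benjamini-Hochberg adjustment over all genes tested) Mt-co3 was lower by a log2 difference of -0.68 (SE 0.23), Mt-co2 by -0.66 (SE 0.24), Mt-co1 by -0.55 (SE 0.24), Mt-atp6 by -0.53 (SE 0.21) and Mt-cyb by -0.48 (SE 0.22). These 5 had unadjusted p between 0.00679 (Mt-co3) and 0.0415 (Mt-cyb), and Mt-atp8 stood at -0.87 (SE 0.50, unadjusted p = 0.0942). None of the 6 passed, at an adjusted p of 0.999776 each, where 0% of the 17347 genes passed and 348 had an unadjusted p under 0.05. The 5 genes with an unadjusted p under 0.05 were all lower, as were 1.33% of all genes. The median over the 6 was -0.60, beside -0.66 over the other 16 tested mitochondrial genes and -0.0094 over all genes, so their median lay near that of the rest of their chromosome.

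In shares of all reads, 4 of the 6 genes (Mt-co1, Mt-co2, Mt-co3 and Mt-cyb) had no overlap between denervation and vehicle, with denervation below, as did 0.098% of all tested genes. The list depended on the scaling. In TMM-scaled counts Mt-co3 and Mt-atp6 had no overlap, again with denervation below. Mt-co1, Mt-co2, Mt-cyb and Mt-atp8 overlapped there, Mt-co1 with a lowest vehicle value of 97378 CPM and a highest denervation value of 104524. The share of all genes was not counted on that scale. The mean share after denervation was 0.777 times that with vehicle for Mt-co1, 0.724 for Mt-co2, 0.712 for Mt-co3, 0.829 for Mt-cyb, 0.796 for Mt-atp6 and 0.625 for Mt-atp8. In a test chosen after the data were seen, the exact two-sided permutation of these shares, p was 0.0021645 for the first 4, the smallest that 6 libraries against 6 allow, and 0.00649 for Mt-atp6. Adjusted over the 22 tested mitochondrial genes these were 0.00595 and 0.0159, and Mt-atp8 did not pass (permutation p = 0.106, adjusted 0.156). Of the 22 mitochondrial genes, 45.5% passed this test. The 5 genes also passed without denervation replicate 1, whose Mt-co1 share stood apart from its group. By edgeR with library totals in place of TMM, the log2 differences ran from -0.27 (Mt-cyb) to -0.68 (Mt-atp8). None of the 6 passed (adjusted p = 0.936 each), nor did any of the 17347 genes. In that edgeR fit Mt-co3 and Mt-co2 had unadjusted p of 0.0133 and 0.0230, and the other members 0.0752 to 0.165. Limma's voom with weights for sample quality called all 6 lower (adjusted p 0.00151 to 0.00533), in a fit that called 46.3% of all genes. The direction held in both sets of rats, with ratios of denervation to vehicle means of 0.627 to 0.846 in the lower-numbered (4 against 3 libraries) and 0.740 to 0.821 in the higher-numbered rats (2 against 3).

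**Figure D2:**
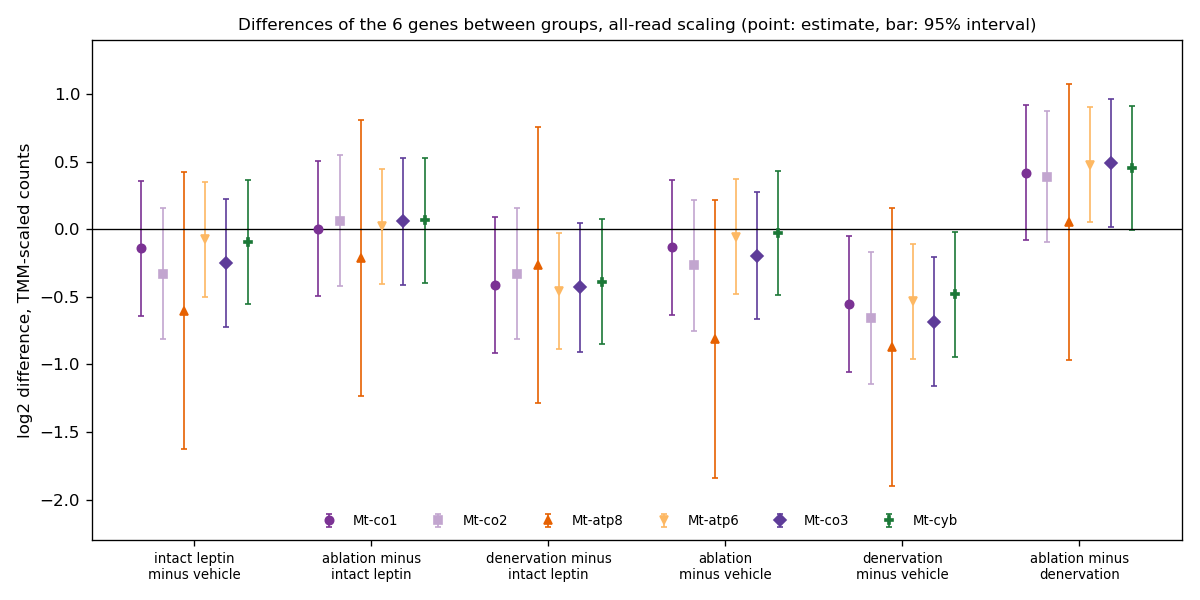
Log2 differences of TMM-scaled counts (vertical axis) for the 6 genes in the 6 comparisons between groups; points are edgeR estimates and bars 95% intervals. In denervation against vehicle the intervals of 5 genes lie below 0 before adjustment, and the interval of Mt-atp8 is the widest in every comparison.

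Denervation against intact BAT, both under leptin, differs by design in the nerve cut alone. All 6 genes lay below the intact group, by -0.46 (SE 0.21) for Mt-atp6, -0.43 (SE 0.23) for Mt-co3, -0.41 (SE 0.24) for Mt-co1, -0.39 (SE 0.22) for Mt-cyb, -0.33 (SE 0.23) for Mt-co2 and -0.27 (SE 0.49) for Mt-atp8. Without leptin replicate 6, the only higher-numbered rat of its group, Mt-atp8 stood at 0.40 (edgeR adjusted p = 0.545). With a term for the rat-number sets it stood at -0.50, and within the lower-numbered rats its ratio of mean shares was 0.817. None of the 6 passed (adjusted p 0.276 to 0.801), nor did any of the 17347 genes (0%, with 2836 at an unadjusted p under 0.05). Only Mt-atp6 had an unadjusted p under 0.05 (0.0365) among the 6, where 10.4% of all genes did so in the lower direction. The 95% intervals reached from -0.91 to 0.09 for Mt-co1 and from -0.88 to -0.03 for Mt-atp6, the first of which holds 0 and the second does not before adjustment. By the exact permutation of shares of all reads, p lay between 0.0173 and 0.0346 for Mt-co1, Mt-co2, Mt-atp6 and Mt-co3, with adjusted p of 0.0714 to 0.0762, and none passed (0% of the mitochondrial genes). The libraries of the 2 groups overlapped for all 6 genes. Within the lower-numbered rats the 6 ratios of mean shares were all under 1 (0.776 to 0.863, 4 against 5 libraries), and within the higher-numbered 5 of 6 were (0.687 to 1.04, 2 libraries against 1). With a term for the rat-number sets the 6 differences drew together, from -0.40 to -0.50, with edgeR adjusted p of 0.113 to 0.214. That fit called 1154 of the 17347 genes. Scaled by library totals in place of TMM, the 6 differences lay between -0.12 and -0.35. The median of all genes was then 0.105 here (0.0164 with TMM). For denervation against vehicle it was 0.183 (-0.0094 with TMM).

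Leptin against vehicle in rats with intact BAT gave small differences. All 6 lay below 0, from -0.07 (SE 0.21) for Mt-atp6, -0.09 (SE 0.22) for Mt-cyb and -0.14 (SE 0.24) for Mt-co1 to -0.25 (SE 0.23) for Mt-co3, -0.33 (SE 0.23) for Mt-co2 and -0.60 (SE 0.50) for Mt-atp8. None of the 6 passed (adjusted p 0.380 to 0.835), where 0.674% of all genes did. The 95% intervals were -0.64 to 0.36 for Mt-co1 and -0.81 to 0.16 for Mt-co2, so they hold 0 and sizeable falls alike. The sign of the smallest differences was not held: with library totals Mt-atp6 stood at 0.02 and Mt-cyb at 0.0073. Within the lower-numbered rats the 6 ratios of mean shares lay between 0.768 and 0.980, and within the higher-numbered (1 library against 3) 4 of 6 lay above 1. Without leptin replicate 6, the only higher-numbered rat of that group, Mt-atp8 was called lower (log2 difference -1.26, adjusted p = 0.0440), in a fit that called 25.4% of all genes, and voom called Mt-co2, Mt-atp8 and Mt-co3 lower where it called 60.6%. With the rat-number term Mt-atp8 stood at -0.17 (SE 0.22).

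None of the 6 genes was called by edgeR in a comparison with the ablation group. Against intact BAT under leptin the differences ran from -0.21 (Mt-atp8) to 0.07 (Mt-cyb), with 0 of 6 called (adjusted p 0.876 to 0.997) and 3.03% of all genes called. The sets of rats differed in direction here, the ratios of mean shares being 1.07 to 1.13 in the lower-numbered rats (5 against 5) and 0.712 to 0.926 in the higher-numbered (1 against 1). Against vehicle they ran from -0.81 (Mt-atp8) to -0.03 (Mt-cyb), with 0 of 6 (adjusted p 0.486 to 0.951) and 0% of all genes called, 1892 having an unadjusted p under 0.05. The direction was not held by all 6: with library totals Mt-co1 stood at 0.0092, Mt-atp6 at 0.08 and Mt-cyb at 0.12, and their mean shares of all reads were 1.01, 1.06 and 1.09 times those with vehicle. Voom called 1 of the 6 lower in that comparison, with 55.6% of all genes. Against denervation all 6 lay higher after ablation, from 0.05 (Mt-atp8) to 0.49 (Mt-co3), with 0 of 6 and 0% of all genes called (778 at an unadjusted p under 0.05), although Mt-atp6 and Mt-co3 had unadjusted p of 0.0295 and 0.0440 by the same edgeR test (adjusted p = 0.890 for both).

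Scaled to mitochondrial reads alone, the groups drew together. The 6 genes took 75.0% ± 1.62 of the mitochondrial reads with vehicle, 75.4% ± 2.93 with leptin, 76.1% ± 2.21 after ablation and 75.8% ± 1.26 after denervation (SD, n = 6 each). The complex IV subunits took 54.6% ± 1.29, 54.1% ± 2.63, 54.1% ± 2.54 and 54.1% ± 1.96 in the same order of groups. On this scale the mean of the denervation group was lowest for none of the 6 genes, though its median was lowest for Mt-co3 (11.8%).

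Mt-co1 took 30.6% to 33.6% of mitochondrial reads with vehicle (median 32.04%), 29.6% to 35.1% with leptin (33.2%), 29.1% to 35.2% after ablation (32.7%) and 27.5% to 35.1% after denervation (33.3%). Mt-co2 took 8.86% to 11.1% (median 10.0%), 7.43% to 10.0% (9.20%), 8.35% to 9.82% (9.30%) and 8.65% to 10.2% (9.39%) in that order. Mt-co3 took 12.1% to 13.5% (median 12.7%), 11.5% to 12.5% (12.0%), 12.0% to 13.0% (12.4%) and 11.5% to 13.1% (11.8%). All 4 groups overlapped for each of these complex IV genes. Mt-atp6 took 9.04% to 11.2% (median 10.1%), 9.29% to 11.3% (11.0%), 9.66% to 12.3% (10.8%) and 9.05% to 12.2% (11.0%). Mt-atp8 took 0.551% to 1.27% (median 0.946%), 0.358% to 1.39% (0.518%), 0.458% to 1.20% (0.531%) and 0.418% to 1.26% (0.615%). Mt-cyb took 9.02% to 10.2% (median 9.27%), 8.94% to 11.7% (9.68%), 8.98% to 11.2% (10.6%) and 9.25% to 12.4% (10.3%). Vehicle had the highest mean of Mt-co2, Mt-atp8 and Mt-co3 and the lowest of Mt-co1, Mt-atp6 and Mt-cyb, but its libraries overlapped with those of every other group.

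**Figure D3:**
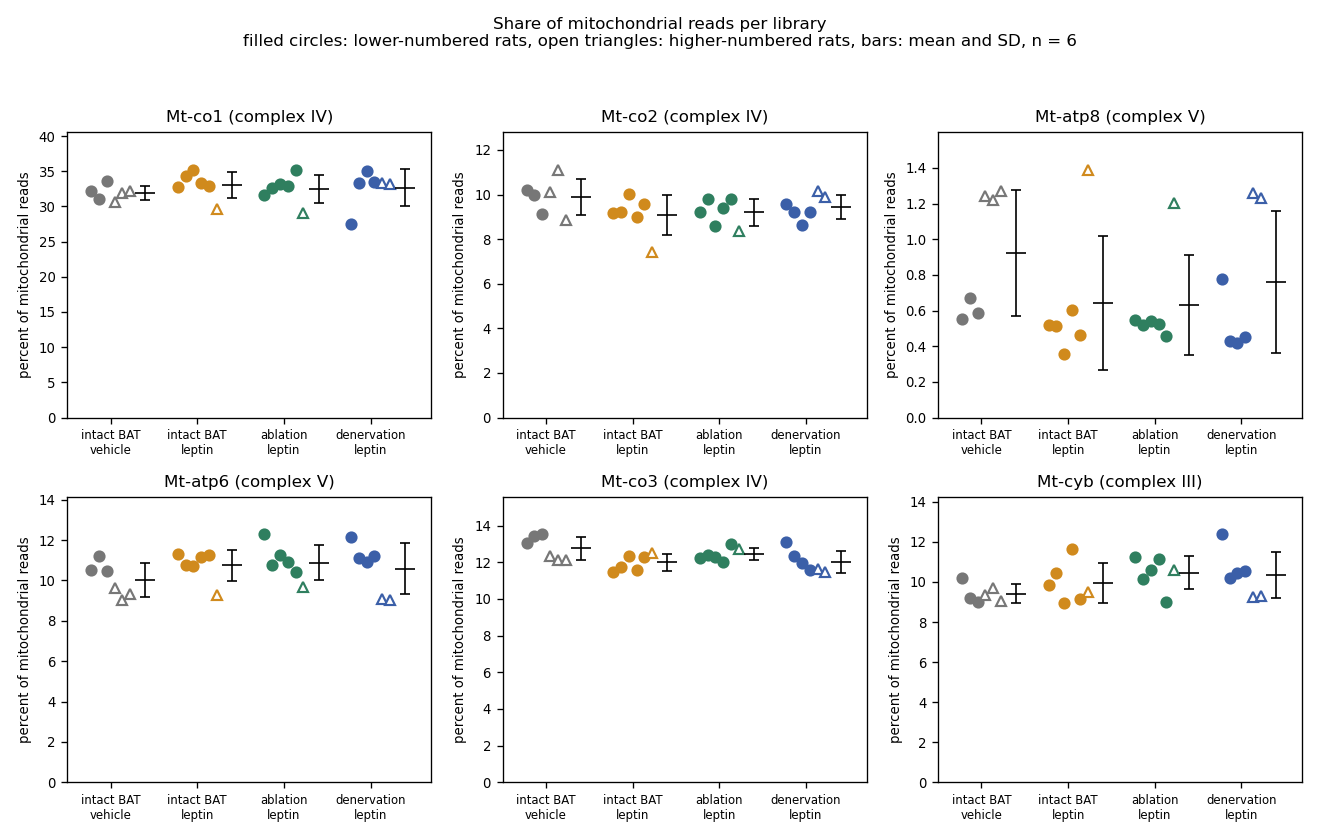
Percent of mitochondrial reads (vertical axes, each from 0) for the 6 genes in the 24 libraries, by group; filled circles are the 17 lower-numbered rats, open triangles the 7 higher-numbered rats, and bars the mean and SD (n = 6). The groups overlap for all 6 genes, and Mt-atp8 and Mt-atp6 separate by the rat-number set, in opposite directions.

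By exact two-sided permutation of these shares, adjusted over the 22 tested mitochondrial genes, 0 of the 6 genes passed in any of the 6 comparisons. The share of mitochondrial genes that passed was 9.09% for ablation against vehicle and 0% for each of the other 5. For denervation against vehicle the mean differences were 0.73 percentage points of mitochondrial reads for Mt-co1, -0.45 for Mt-co2, -0.16 for Mt-atp8, 0.55 for Mt-atp6, -0.74 for Mt-co3 and 0.94 for Mt-cyb (permutation p 0.0671 to 0.569, adjusted 0.381 to 0.659). Leptin against vehicle gave -0.76 points for Mt-co3 (permutation p = 0.0476, adjusted 0.210), and ablation against vehicle gave 1.03 points for Mt-cyb (permutation p = 0.0325, adjusted 0.159). These 2 were the only permutation p under 0.05 among the 36 values of the 6 genes. In the ablation comparison a pass came in each of 2 alternatives: without ablation replicate 5 Mt-cyb passed at 1.33 points (adjusted permutation p = 0.0476, with 13.6% of the mitochondrial genes), and permuted within the rat-number sets Mt-atp8 passed at -0.0731 points (adjusted permutation p = 0.0491, with 18.2%).

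Mt-atp8 was the member with the largest relative spread, and that spread followed the rat numbers. Its coefficient of variation over the 24 libraries was 48.6% of the mean share of all reads, against 18.8% to 19.9% for the other 5. In mitochondrial reads it stood at 1.26% ± 0.0624 (SD, n = 7, from 1.20% to 1.39%) in the higher-numbered rats and at 0.525% ± 0.0992 (SD, n = 17, from 0.358% to 0.776%) in the others, a ratio of 2.40 with no overlap. The boundary came from the main axis of variation of these same libraries, so no test is given. Other mitochondrial genes also separated fully at this boundary, as given below, and the share of all genes that did so was not counted. The split was present within each group: 1.25% against 0.602% with vehicle (3 and 3 rats), 1.39% against 0.492% with leptin (1 and 5), 1.20% against 0.518% after ablation (1 and 5) and 1.24% against 0.519% after denervation (2 and 4). The unequal numbers of higher-numbered rats, 3 with vehicle and 1 with intact BAT and leptin, stand beside the lower mean of Mt-atp8 in the leptin group, and their part in it was measured only by the fits given above.

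**Figure D4:**
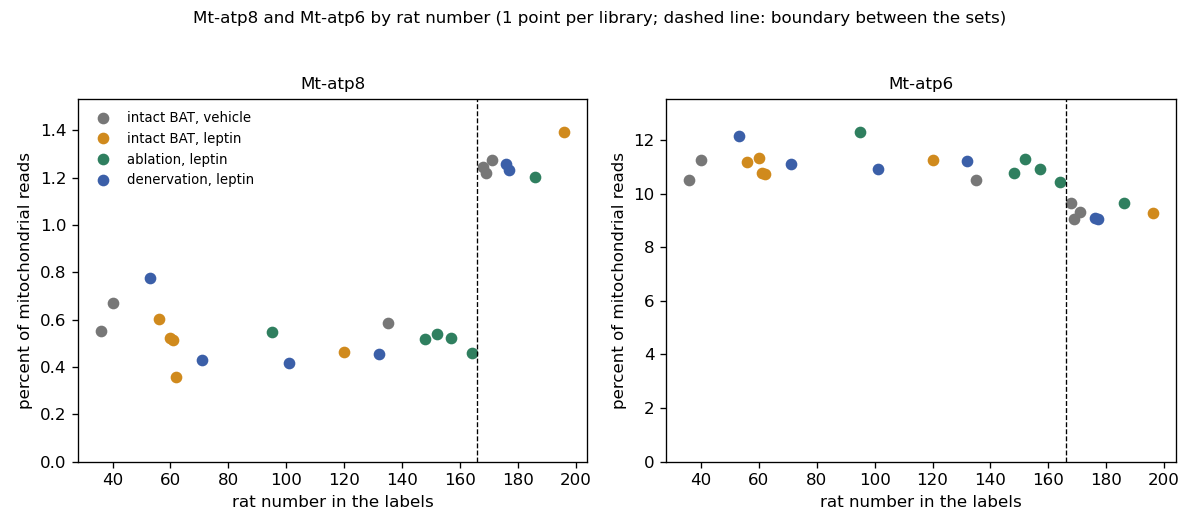
Percent of mitochondrial reads (vertical axes from 0) of Mt-atp8 and Mt-atp6 against the rat number in the labels (horizontal axes), 1 point per library, colored by group; the dashed line marks the boundary between the 17 lower and 7 higher numbers. Mt-atp8 lies at 1.20% or more to the right of the line and at 0.776% or less to the left, and Mt-atp6 at 9.66% or less to the right and 10.4% or more to the left.

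Mt-atp6, which shares a transcript and 43 bases with Mt-atp8, lay the other way, at 9.29% ± 0.267 (n = 7, from 9.04% to 9.66%) against 11.1% ± 0.518 (SD, n = 17, from 10.4% to 12.3%), again with no overlap. The ratio of Mt-atp8 to Mt-atp6 counts was 0.136 in the higher-numbered rats (0.124 to 0.150) and 0.0473 in the others (0.0334 to 0.0638). The other 4 genes differed little between the sets, with ratios of mean shares of 1.00 for Mt-co2, 0.980 for Mt-co3, 0.953 for Mt-co1 and 0.932 for Mt-cyb. Among the 9 other mitochondrial genes over 200 bases the ratio ran from 0.501 to 2.95. The 2 sets of rats also had no overlap for ENSRNOG00000030478, ENSRNOG00000031033, ENSRNOG00000031053 and ENSRNOG00000029971, and overlapped for the rest of these 9. The highest ratio was that of ENSRNOG00000031053 (9870 to 10166, 297 bases), which has 193 positions that touch it alone and also overlaps a neighbour. The lowest was that of ENSRNOG00000030478, which has 859 such positions and overlaps no gene. ENSRNOG00000029971 and ENSRNOG00000029042, which share 23 bases, stood at 1.78 (1708 positions) and 1.02 (397 positions). ENSRNOG00000033615, with 250 positions, stood at 0.897. The part of positions and overlaps in these ratios was not tested. The TMM factors, which scale each library, also differed between the sets (0.699 to 0.903 in the higher-numbered rats, 0.935 to 1.27 in the others). They do not enter the shares of mitochondrial reads or the ratio of counts given here.

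**Figure D5:**
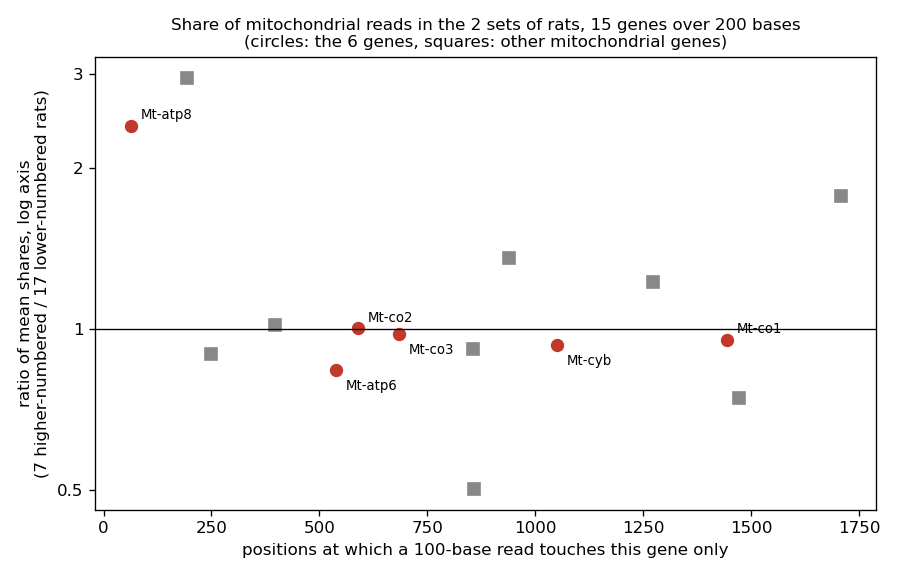
Ratio of the mean share of mitochondrial reads in the 7 higher-numbered to the 17 lower-numbered rats (vertical log axis) against the number of positions at which a 100-base read touches only that gene (horizontal axis), for 15 mitochondrial genes over 200 bases; circles are the 6 genes and squares the others. Mt-atp8, with 63 positions, stands at 2.40, Mt-atp6 at 0.838 and the other 4 circles between 0.932 and 1.00.

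The levels of the 6 genes went together over libraries. Within the 17 lower-numbered rats Pearson's r between pairs of the 6 on TMM-scaled log2 CPM ran from 0.731 (Mt-co1 with Mt-atp8) to 0.984 (Mt-co2 with Mt-co3), and within the 7 higher-numbered rats from 0.701 (Mt-co2 with Mt-cyb) to 0.996 (Mt-atp6 with Mt-co3). These points share a library, its depth and its scaling, so r describes these libraries only. The counts relative to Mt-co1 stood at 0.380 ± 0.0352 for Mt-co3, 0.310 ± 0.0413 for Mt-cyb and 0.290 ± 0.0272 for Mt-co2 (SD, n = 24). They ran from 0.341 to 0.476, from 0.254 to 0.449 and from 0.247 to 0.348 in that order. Mt-atp8 and Mt-atp6 were not set against Mt-co1.

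The genes outside the 6 whose levels went most closely with their mean were also mitochondrial. Over 24 libraries r was 0.976 for ENSRNOG00000029707 (10160 to 11537), 0.970 for ENSRNOG00000031033 (3904 to 4942) and 0.918 for ENSRNOG00000029971 (11736 to 13565), beside a median of 0.859 over 13 mitochondrial genes with a mean of at least 1 CPM. Of the 13364 nuclear genes at that level, whose median r was 0.034, the closest were ENSRNOG00000010985 on chromosome 6 (103964060 to 103990225) at 0.868, ENSRNOG00000070271 on chromosome 9 (61741823 to 61744061) at 0.834 and ENSRNOG00000017784 on chromosome 2 (194230951 to 194322483) at 0.830. Within the lower-numbered rats these 3 stood at 0.834, 0.776 and 0.823, and within the higher-numbered at 0.766, 0.646 and 0.450. They were the highest of many and were not tested further.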

How the data were processed

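RNA of the heart septum of 24 rats was sequenced as messenger RNA in pairs of 100-base reads, as the labels' protocols state. The authors deposited whole-number counts per gene, which are counts of reads and not of fragments. Per the file header they were made with featureCounts 2.0.6 in paired-end mode on Ensembl 113 (mRatBN7.2), with no strand, multi-mapping or overlap option; the submitters' processing notes name STAR 2.7.10a, featureCounts 2.0.2, DESeq2 and R 4.4.1. Replicates were not pooled, and 5 further columns of counts with no matching sample were left out.

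All-read scaling used edgeR 4.0.16 in R 4.3.3: filterByExpr, TMM, a robust quasi-likelihood fit to all 24 libraries and Benjamini-Hochberg adjustment over 17347 genes at 0.05, with SE from the F statistic. Mitochondrial-read scaling used the percent of reads on the 37 mitochondrial genes and exact two-sided permutation tests (6 against 6, 924 arrangements), adjusted over the 22 tested mitochondrial genes. Percent of all reads and RPKM used library totals. Likeness was measured on TMM-scaled log2 CPM (prior count 2). The scripts were tested on simulated data.

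The named genes are the 6 members and, with a mean of at least 1 CPM, the 3 mitochondrial and 3 nuclear genes with the highest r with the members' mean; other mitochondrial IDs were named after their values were seen. The members, lists and rat-number sets were chosen with earlier results of these data known. The 16 lists of nuclear partners and cell type markers were not run, because 0 IDs matched a symbol. Each rat has a number of its own and the labels tie no replicate numbers across groups, so rats were not treated as paired. Alternatives were other scalings, filters and tools (DESeq2 1.42.0, limma 3.58.1), a replicate block, the rat-number sets and each library left out. The permutation of shares of all reads, with and without 1 library, and library totals with a rat-number term were added after the data were seen.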

Additional observations from a re-analysis of the deposited data

Results flagged for a closer look

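Each of the 6 genes was examined in the 4 groups on both scales, 48 groups of 6 libraries, for a highest or lowest library set apart from the rest by Dixon's gap at the 95% level. Chance alone flags about 1 group in 20, and 8 of the 48 were flagged. In denervation replicate 1 Mt-co1 took 6.53% of all reads, where the other 5 libraries took 8.76% to 9.94%, and 27.5% of mitochondrial reads, where the others took 33.2% to 35.1%. In leptin replicate 6, a higher-numbered rat, Mt-atp8 took 0.488% of all reads (others 0.0874% to 0.214%) and 1.39% of mitochondrial reads (others 0.358% to 0.603%), and Mt-atp6 took 9.29% of mitochondrial reads (others 10.7% to 11.3%). In ablation replicate 6, the higher-numbered rat of its group, Mt-atp8 took 1.20% of mitochondrial reads (others 0.458% to 0.548%). In denervation replicate 2 Mt-co3 took 3.68% of all reads (others 3.03% to 3.20%). In vehicle replicate 1 Mt-cyb took 3.71% of all reads (others 3.17% to 3.30%).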

How the results depend on the processing

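On the all-read scale the count of the 6 genes called stayed at 0 in each comparison under other size factors, library totals, nuclear reads, other filters, DESeq2, the 12 libraries compared, the rat-number term and the lower-numbered rats alone. With the rat-number term 3219 of all 17347 genes were called for ablation against leptin. There were 1154 for denervation against leptin, 1063 for leptin against vehicle and 0 in the comparisons left. With library totals the calls were 174, 2, 20 and 0 in that order. The share of all genes called is not given for every alternative. The count of the 6 was 3 for leptin against vehicle, 1 for ablation against vehicle and 6 for denervation against vehicle under voom with sample weights, and 5 for denervation against vehicle under the permutation of shares of all reads, also 5 without denervation replicate 1. Leaving out each library gave 0 to 1 for leptin against vehicle. On the mitochondrial scale ablation against vehicle gave 1 when permuted within the rat-number sets and 0 to 1 with each library left out. The cause of these changes was not tested. For denervation against vehicle all 156 alternative values of the 6 genes kept their direction on the all-read scale, and for denervation against leptin 155 of 156 did, the exception being Mt-atp8 without leptin replicate 6 (0.40; -0.56 to 0.40 over the libraries left out). For ablation 28 of 150 turned against leptin, 18 of 150 against vehicle and 5 of 156 against denervation.

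Directions also turned for leptin against vehicle in Mt-atp6 (0.0236 with library totals, 0.0228 without leptin replicate 3 and -0.16 to 0.0228 over the libraries left out, 0.0584 percentage points as a share of all reads) and Mt-cyb (0.0073 with library totals, 0.0014 with the rat-number term, 0.0214 without leptin replicate 3 and -0.22 to 0.0214 over the libraries left out, 0.0168 points as a share). For ablation against vehicle on the mitochondrial scale, Mt-co3 turned to 1.117% per reads of the other mitochondrial genes, and Mt-co1 to -0.116 points within the rat-number sets and to -0.0499 without ablation replicate 5 (-0.0499 to 1.17 over the libraries left out).

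With the replicate number as a block, 0 of the 6 genes were called in every comparison on both scales; on the mitochondrial scale the smallest p that the paired permutation of 6 pairs allows is 0.03125 before adjustment. Deviations from the group means correlated above 0.1 in 24 of 36 pairs of libraries with the same number (median r 0.200, lowest -0.34) and in 67 of 180 pairs with different numbers (median -0.0093), and 9 of 24 libraries correlated best with their own number. Since not every same-number pair was above 0.1 and the labels tie no numbers across groups, the libraries were not treated as pairs.

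Depth does not limit these genes. The spread between rats does, most for Mt-atp8, together with the 63 positions its count rests on. The permutation p values set each difference against rearrangements of the 6 rats per group compared. Those of edgeR rest on a spread estimated from all 24 libraries. The sets of rat numbers are spread unequally over the groups.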
